A study of Homo sapiens with 6 samples.

Results

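The 49 genes described here encode SR proteins (13 genes), heterogeneous nuclear ribonucleoproteins or hnRNPs (20 genes) and a set of core spliceosome factors (16 genes). The last set holds 9 SF3A and SF3B subunits, U2AF2 and 6 PRPF proteins. All 49 genes were taken by symbol from a table of 78304 genes, in which each of the 49 symbols occurred once. The table holds poly(A) RNA sequencing of Huh7, a permanent cell line derived from a human liver carcinoma, whose genotype the labels give as WT. Cells were seeded for 24 h and then given DMSO, the vehicle, or the compound 16'-DEC for 24 h, with 3 libraries per group. The dose is not stated in the labels, and 16'-DEC is known here only by this code. The study asked how the compound alters mRNA levels in these liver cancer cells.

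Splicing removes introns from precursor mRNA. The U2 snRNP recognises the branch point of an intron through its SF3A and SF3B subcomplexes, U2AF2 binds the neighbouring polypyrimidine tract, and the PRPF proteins build the tri-snRNP and the catalytic spliceosome. SR proteins carry RNA recognition motifs and an arginine- and serine-rich domain and mostly favour the use of exons that they bind, while many hnRNPs coat nascent transcripts and can repress exons.

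Values are TPM (transcript abundance relative to the library's total), which are scaled for gene length and sum to the same total in every library, so levels can be compared between genes but absolute depth cannot be recovered. Of all genes, 14275 averaged 1 TPM or more and were tested, among them all 49 splicing factors. In 16'-DEC replicate 3, 38 of the 49 were at the lowest of the 3 treated values, against 23 at most in any DMSO library. The same count over all genes tested was not computed. Counts of calls are therefore also given without 16'-DEC replicate 3. The 8 hepatocyte-lineage markers examined, among them ALB and AFP, were all present. Summed fibroblast markers reached at most 2.51 TPM and endothelial markers at most 0.717 TPM, while the T cell gene CD3E and the fibroblast gene DCN were listed at 0 in every library. The leukocyte list of 4 genes, 2 of which averaged 1 TPM or more, summed to 1639 to 1811 TPM with DMSO and 833 to 954 TPM with 16'-DEC, nearly all of it from the lysozyme gene LYZ. Its part in the results was not tested. Nothing in the labels says that the libraries came from separate cultures, so a p-value here covers the spread among libraries, which may be technical.

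Most of the 49 splicing factor transcripts were lower with 16'-DEC. With limma on log2(TPM + 1) and Benjamini-Hochberg adjustment over all genes tested, 31 fell, 11 rose and 7 did not pass the threshold of 0.05. Among all genes tested, 48.9% were called lower and 22.7% higher, and the median change was -0.31 on the log2 scale, against -0.45 over the 49. The families differed in their counts. Of the 13 SR protein genes 12 fell and 1 rose, of the 20 hnRNP genes 16 fell and none rose, and of the 16 SF3, U2AF2 and PRPF genes 10 rose and 3 fell. Without 16'-DEC replicate 3, 13 of the 49 rose and 29 fell, beside 24% and 46.8% of all genes tested. In bulk RNA, fewer cells of a kind and less RNA per cell cannot be told apart.

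These counts depended on the adjustment for transcript properties and on scaling. After the trend with GC content and transcript length was removed from each library, which also re-centres it, 21 of the 49 rose and 19 fell, where 34.5% of all genes in that fit were called higher and 31.7% lower. Median-of-ratios scaling gave 17 higher and 23 lower, where 37.1% of all genes tested were called higher and 37.7% lower. Quantile normalization gave 14 higher and 27 lower, beside 42.0% and 33.3% of all genes. Scaling factors taken from every gene above 0, rather than only from genes tested, gave 23 higher and 20 lower, beside 43.5% and 32.4%. These 3 scalings shifted the median of all genes by 0.29, 0.41 and 0.44 on the log2 scale. Against the -0.31 of all genes, 26 of the 49 changes as deposited were lower and 23 were higher.

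**Figure D1:**
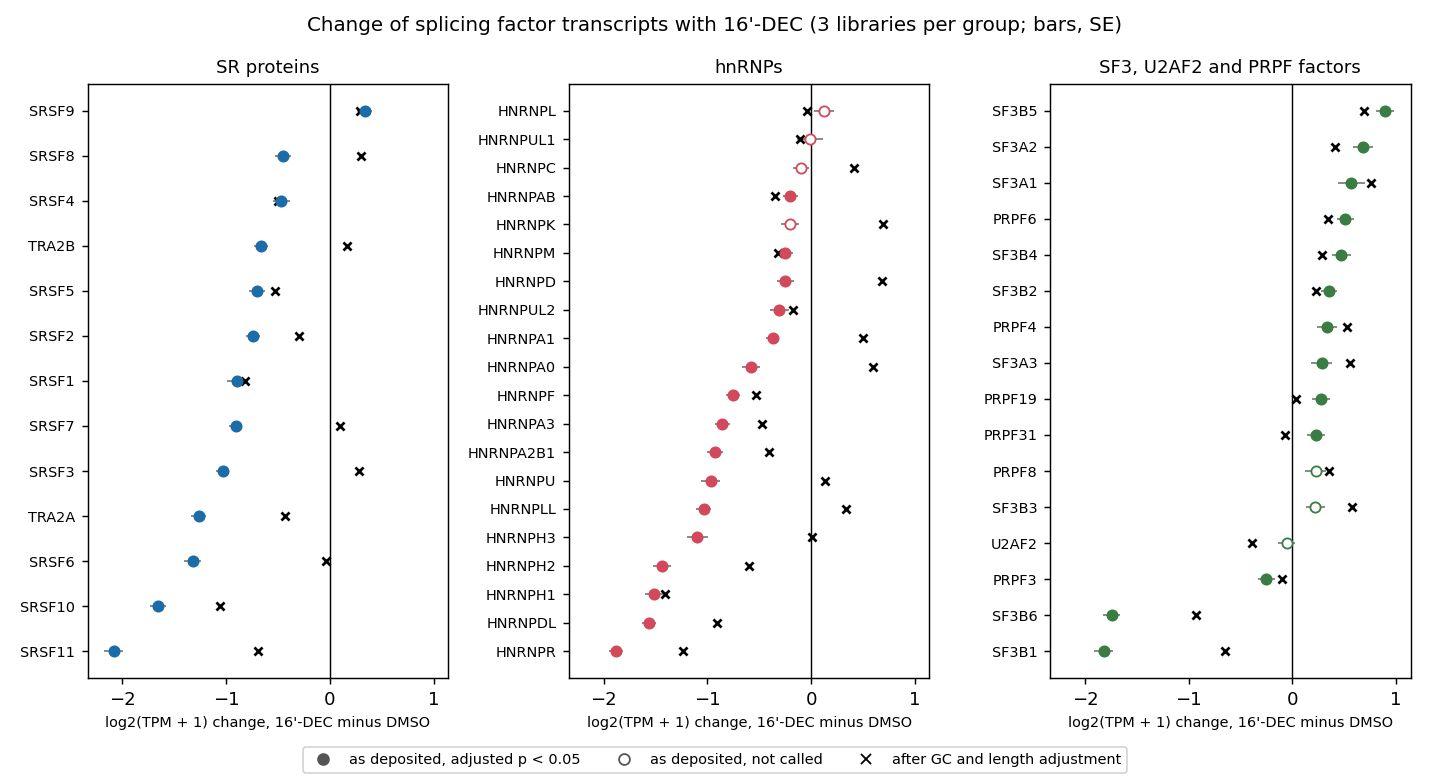
Change of each of the 49 genes on the log2(TPM + 1) scale, 16'-DEC minus DMSO, by family; circles with SE bars are values as deposited (filled where called), and crosses are values after the GC and length adjustment. SR proteins and hnRNPs lie mostly below 0 and SF3, U2AF2 and PRPF factors mostly above it, while 8 members called lower as deposited were called higher after the adjustment.

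Among the SR proteins, SRSF11 fell most. The SR-related protein SRSF11 measured 191, 177 and 208 TPM with DMSO and 45.6, 47.9 and 40.1 TPM with 16'-DEC. Every treated library was below every control library, and the mean was 4.31-fold lower (log2 change -2.08 ± 0.0928 SE, n = 3 per group, limma adjusted p = 2.38e-07). SRSF10, a splicing repressor when dephosphorylated, stood at 173, 154 and 156 TPM with DMSO. It was at 52.1, 50.6 and 48.5 TPM with 16'-DEC, so the groups did not overlap and the mean fell 3.19-fold (log2 change -1.65 ± 0.0749 SE, limma adjusted p = 2.57e-07). TRA2A, a homologue of the fly regulator transformer-2, went from 67.7, 67.6 and 64.3 TPM to 27.0, 26.5 and 27.8 TPM. Its groups lay far apart against a spread of 1.93 TPM (SD) in the controls, and the log2 change was -1.26 (limma adjusted p = 6.97e-07).

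SRSF6 and SRSF3 also fell as deposited, but the adjustment for GC content and length ended the call of SRSF6 and reversed that of SRSF3. SRSF6, an exon enhancer-binding protein, measured 174, 159 and 158 TPM with DMSO and 65.7, 69.3 and 59.9 TPM with 16'-DEC (log2 change -1.32, limma adjusted p = 1.18e-06; -0.04 after the adjustment). SRSF3, the smallest classical SR protein and also an mRNA export adaptor, measured 239, 231 and 228 TPM with DMSO and 112, 118 and 109.9 TPM with 16'-DEC. As deposited its groups did not overlap and the log2 change was -1.03 (limma adjusted p = 1.42e-06), while after the adjustment it was 0.28 (limma adjusted p = 0.00137). For SRSF11, SRSF10 and TRA2A the change stayed negative after it, at -0.69, -1.06 and -0.43.

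The SR gene that rose was SRSF9, the closest homologue of SRSF1 and the most abundant SR transcript over the 6 libraries. SRSF9 measured 189.8, 216 and 198 TPM with DMSO and 255, 246 and 261 TPM with 16'-DEC. All treated values exceeded all control values, and the mean was 1.26-fold higher (log2 change 0.34 ± 0.0719 SE, n = 3 per group, limma adjusted p = 0.00253; 0.29 after the GC and length adjustment). GATC, a gene on the opposite strand that overlaps SRSF9, had 10.8% of its mean TPM. MFSD11, which overlaps SRSF2 on the opposite strand, had 22.8% of the mean TPM of SRSF2. The labels describe no strand marking, so reads of such gene pairs cannot be told apart. The other 7 SR genes (SRSF1, SRSF2, SRSF4, SRSF5, SRSF7, SRSF8 and TRA2B) fell as deposited by between 0.45 and 0.91 on the log2 scale, though SRSF4 and SRSF8 stood at 0.06 each with scaling factors from every gene above 0. After the adjustment SRSF8 and TRA2B were called higher, SRSF7 was not called and SRSF1, SRSF2, SRSF4 and SRSF5 were called lower. Over the family the counts then stood at 4 higher (30.8%) and 7 lower (53.8%), beside 34.5% and 31.7% of all genes in that fit. They were 1 higher and 10 lower with median-of-ratios scaling, beside 37.1% and 37.7% of all genes. With factors from every gene above 0 they were 1 and 8, beside 43.5% and 32.4%. With quantile normalization they were 1 and 11, beside 42.0% and 33.3%. Summed over the 13 genes, SR transcripts made up 2014 ± 8.20 TPM (SD) with DMSO and 1153 ± 28.8 TPM with 16'-DEC, a difference for which the exact permutation test gives p = 0.1, the smallest that 3 against 3 libraries allow.

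The hnRNP genes fell as deposited in 16 of 20 cases, and none rose, also at an unadjusted p below 0.05 in limma. HNRNPR, a relative of the mRNA-binding protein SYNCRIP, measured 303, 288 and 292 TPM with DMSO and 80.6, 81.7 and 74.9 TPM with 16'-DEC. The groups were far apart, a 3.72-fold lower mean (log2 change -1.88 ± 0.068 SE, n = 3 per group, limma adjusted p = 1.3e-07). HNRNPDL, a homologue of the AU-rich element binder HNRNPD, went from 407, 407 and 395 TPM to 130.4, 142 and 135 TPM. Each treated value was well under each control value, and the mean was 2.96-fold lower (log2 change -1.56, limma adjusted p = 1.98e-07).

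HNRNPH1 and HNRNPH2 bind runs of G in RNA and regulate exons near them. HNRNPH1 measured 366, 322 and 334 TPM with DMSO and 121, 128 and 107 TPM with 16'-DEC (log2 change -1.52, limma adjusted p = 8.34e-07). HNRNPH2 measured 92.7, 87.2 and 85.9 TPM with DMSO and 31.2, 35.9 and 29.6 TPM with 16'-DEC (log2 change -1.43, limma adjusted p = 1.27e-06). In both genes all treated libraries were below all controls. HNRNPR, HNRNPDL, HNRNPH1 and HNRNPH2 stayed lower after the GC and length adjustment, with log2 changes of -1.23, -0.90, -1.41 and -0.60. HNRNPLL, which controls exons of the leukocyte phosphatase gene PTPRC, went from 77.0, 75.1 and 74.0 TPM to 37.2, 37.4 and 34.4 TPM. Its log2 change was -1.03 as deposited (limma adjusted p = 2.38e-06) and turned to 0.33 after the adjustment (limma adjusted p = 0.000318).

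HNRNPA1, a shuttling protein that binds exonic silencers, was the most abundant of the 49 transcripts. It measured 1585, 1551 and 1535 TPM with DMSO and 1231, 1244 and 1142 TPM with 16'-DEC. The groups did not overlap and the mean was 1.29-fold lower (log2 change -0.37, limma adjusted p = 0.000632), close to the median change of all genes. The change was -0.02 with median-of-ratios scaling, 0.16 with factors from every gene above 0 and 0.50 after the GC and length adjustment. With quantile normalization it was -0.65 (limma adjusted p = 8.26e-06), so the direction depends on the setting. Of 147 listed copies of members, 3 had a mean of at least 1 TPM, the highest being HNRNPA1L2 at 1.27 TPM, although how the counting treated shared reads is not given in the sources used here.

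The 4 hnRNP genes that did not pass were HNRNPC, HNRNPK, HNRNPL and HNRNPUL1. HNRNPC, a binder of uridine tracts, measured 722, 689.8 and 814 TPM with DMSO and 716, 699 and 662 TPM with 16'-DEC, and the groups overlapped (log2 change -0.10). HNRNPK, which binds runs of C, measured 491, 477 and 505 TPM with DMSO and 441, 469 and 377 TPM with 16'-DEC. Although its groups did not overlap, the log2 change of -0.20 had a limma adjusted p = 0.0653, and without 16'-DEC replicate 2 it was -0.27 with a limma adjusted p = 0.031. HNRNPL, which binds CA repeats, measured 141, 160.5 and 169 TPM with DMSO and 185, 171 and 156 TPM with 16'-DEC (log2 change 0.12). HNRNPUL1, related to the nuclear scaffold protein HNRNPU, was at 88.8, 88.2 and 88.8 TPM in the controls and at 102, 94.1 and 71.0 TPM with 16'-DEC. The treated libraries of HNRNPUL1 lay on both sides of the controls, and its log2 change of -0.01 became 0.15 without 16'-DEC replicate 3 (limma adjusted p = 0.0897). After the GC and length adjustment HNRNPC and HNRNPK were called higher, at 0.42 and 0.69. With median-of-ratios scaling they stood at 0.25 (limma adjusted p = 0.023) and 0.15 (0.0883). Quantile normalization instead called both lower, at -0.24 (limma adjusted p = 0.0151) and -0.30 (0.00919), so the direction of these 2 genes depends on the setting. HNRNPL was called higher with median-of-ratios scaling (0.47, limma adjusted p = 0.000801), with factors from every gene above 0 (0.65, 0.000138) and with quantile normalization (0.23, 0.045), but stood at -0.04 after the adjustment. HNRNPUL1 was called higher with the median-of-ratios factors, at 0.34 (limma adjusted p = 0.0107) and 0.51 (0.00111).

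The other 10 hnRNP genes fell as deposited, from -0.20 for HNRNPAB to -1.10 for HNRNPH3. HNRNPU (-0.97), HNRNPA2B1 (-0.93), HNRNPA3 (-0.86), HNRNPF (-0.75) and HNRNPA0 (-0.58) changed more than the median of all genes, and HNRNPUL2 (-0.30), HNRNPD (-0.25), HNRNPM (-0.25) and HNRNPAB changed less and turned positive with median-of-ratios scaling, at 0.03, 0.10, 0.10 and 0.15. Some of these calls rested on a single library. HNRNPAB lost its call without DMSO replicate 2 (limma adjusted p = 0.107), DMSO replicate 3 (0.0969), 16'-DEC replicate 2 (0.0947) or 16'-DEC replicate 3 (0.0658). HNRNPD lost it without DMSO replicate 3 (limma adjusted p = 0.0913) or 16'-DEC replicate 3 (0.0737), and HNRNPUL2 without DMSO replicate 2 (0.0561). After the GC and length adjustment the family held 7 higher (35%) and 9 lower (45%) genes, beside 34.5% and 31.7% of all genes in that fit. It held 3 and 11 with median-of-ratios scaling, beside 37.1% and 37.7% of all genes. With factors from every gene above 0 it held 8 and 10, beside 43.5% and 32.4%. Quantile normalization gave 1 and 14, beside 42.0% and 33.3%. Leaving out 16'-DEC replicate 3 gave 0 and 14, beside 24% and 46.8%. Overlapping genes on the opposite strand had 48.0% of the mean TPM of HNRNPUL1 (TGFB1), 41.8% of HNRNPA2B1 (CBX3) and 28.1% of HNRNPU (COX20), and the readthrough gene HNRNPUL2-BSCL2 on the same strand had 65.7% of HNRNPUL2. Summed hnRNP transcripts were 6933 ± 113 TPM (SD, n = 3) with DMSO and 4650 ± 288 TPM with 16'-DEC (exact permutation p = 0.1).

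Among the 9 listed SF3 genes the transcripts moved in opposite directions: SF3B1 and SF3B6 fell 3.54-fold and 3.36-fold while 6 of the other 7 rose. Of the 9, 66.7% were thus called higher and 22.2% lower, beside 22.7% and 48.9% of all genes tested. PHF5A, a further SF3B subunit counted here among the other core spliceosome genes, did not pass (log2 change 0.02, limma adjusted p = 0.795). Its groups overlapped. To show the genes at either end, the 250 bases before the RefSeq transcription start (GRCh38.p14) are given for the 2 subunit genes that fell and the 2 with the largest rises, each 5′ to 3′ on the gene's strand, with capitals marking CCGGAAGT, a motif bound by ETS family transcription factors. These 4 were chosen after their values were seen.
SF3B1, chr2:197435094-197435343, minus strand: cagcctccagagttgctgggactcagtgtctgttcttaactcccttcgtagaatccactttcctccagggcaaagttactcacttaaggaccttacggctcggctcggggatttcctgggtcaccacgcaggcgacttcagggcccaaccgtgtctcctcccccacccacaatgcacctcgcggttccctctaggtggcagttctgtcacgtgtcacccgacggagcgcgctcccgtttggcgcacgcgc
SF3B6, chr2:24076327-24076576, minus strand: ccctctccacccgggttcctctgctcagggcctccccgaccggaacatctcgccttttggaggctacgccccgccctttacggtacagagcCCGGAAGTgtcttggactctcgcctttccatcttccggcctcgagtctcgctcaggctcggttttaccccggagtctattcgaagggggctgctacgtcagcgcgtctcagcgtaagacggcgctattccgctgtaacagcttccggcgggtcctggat
SF3B5, chr6:144095574-144095823, minus strand: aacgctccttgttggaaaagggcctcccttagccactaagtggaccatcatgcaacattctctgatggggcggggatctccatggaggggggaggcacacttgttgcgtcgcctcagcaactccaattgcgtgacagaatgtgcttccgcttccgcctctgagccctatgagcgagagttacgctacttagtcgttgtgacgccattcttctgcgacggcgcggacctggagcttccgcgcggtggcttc
SF3A2, chr19:2236574-2236823, plus strand: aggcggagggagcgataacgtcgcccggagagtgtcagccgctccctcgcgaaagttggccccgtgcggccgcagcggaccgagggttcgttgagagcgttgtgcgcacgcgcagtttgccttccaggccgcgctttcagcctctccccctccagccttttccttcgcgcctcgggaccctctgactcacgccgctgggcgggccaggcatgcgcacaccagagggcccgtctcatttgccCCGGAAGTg
The motif stood 159 bases before the RefSeq start in SF3B6, which fell, and 9 bases before it in SF3A2, which rose. These letters were in neither SF3B1, which fell, nor SF3B5, which rose. In GENCODE 29 the SF3A2 gene runs from 2236504 to 2248679, so its window lies inside the gene by that annotation. The SF3B6 gene runs from 24067584 to 24076443 there, so its window overlaps the gene.

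The promoter table held 44 of the 49 genes, without TRA2A, SF3B3, SRSF2, HNRNPA1 and PRPF3. CCGGAAGT was searched on both strands together with 6 other motifs, which were picked with the results known. It occurred in 11 of the 44 windows (25%), in 7.71% of 10021 windows of genes tested here and in 3.64% of all 27326 windows. Of the 8 SF3 genes with a window, 6 held it (SF3A1, SF3A2, SF3A3, SF3B2, SF3B4 and SF3B6), and the others were HNRNPD, PRPF6, SRSF4, SRSF5 and U2AF2. CCGGAAGT stood in 6 of the 11 windows of members that rose and in 4 of the 27 of members that fell. Its share among all tested genes that rose or fell was not computed. CCAAT was in 45.5% of member windows and 35.6% of those of tested genes, GGGCGG in 63.6% and 67.1%, TATAAA in 9.09% and 5.24% and GAANNTTC, the heat shock element core, in 6.82% and 4.15%. TGACGTCA and AAGATGGCG were in no member window and in 2.94% and 1.16% of those of tested genes. A match describes letters in this window and nothing about a factor.

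SF3B1 is the large HEAT-repeat subunit that holds the branch point and is the target of several natural splicing inhibitors. Its gene lies on chromosome 2 from 197389784 to 197435091 (GRCh38, GENCODE 29). SF3B1 measured 360.2, 353 and 321 TPM with DMSO and 86.2, 104 and 102 TPM with 16'-DEC. All treated libraries were far below all controls, a 3.54-fold lower mean (log2 change -1.82 ± 0.0902 SE, n = 3 per group, limma adjusted p = 3.93e-07; -0.65 after the GC and length adjustment). SF3B6, the small subunit that contacts the branch point adenosine, lies on the same chromosome from 24067584 to 24076443 and was the most abundant of the 16 genes. It went from 897, 937 and 803 TPM to 244, 266 and 276 TPM, with no overlap and a 3.36-fold lower mean (log2 change -1.74 ± 0.0813 SE, limma adjusted p = 2.99e-07; -0.93 after the adjustment).

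SF3B5, a small subunit encoded by a single exon on chromosome 6 from 144094881 to 144095573, showed the largest rise of the 49 as deposited. It measured 138, 155 and 168 TPM with DMSO and 284, 273 and 299.8 TPM with 16'-DEC. The treated values were all above the controls, a 1.86-fold higher mean (log2 change 0.89 ± 0.087 SE, n = 3 per group, limma adjusted p = 2e-05; 0.69 after the adjustment). SF3A2, which links SF3A to the U2 snRNP, went from 23.5, 29.02 and 25.3 TPM to 44.7, 41.0 and 40.0 TPM. Its groups did not overlap (log2 change 0.68, limma adjusted p = 0.00022), but the opposite-strand gene PLEKHJ1 that overlaps it had 150% of its mean TPM. SF3B4, a subunit that binds upstream of the branch point and is mutated in Nager syndrome, went from 44.3, 51.5 and 49.03 TPM to 73.1, 67.4 and 61.5 TPM (log2 change 0.47, limma adjusted p = 0.00149). SF3B2, its binding partner, went from 104, 116 and 119 TPM to 149, 145 and 139 TPM (log2 change 0.35, limma adjusted p = 0.00263). Both had all treated values above all controls, and both stayed higher after the adjustment, at 0.29 and 0.22.

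SF3A1 rose by 0.57 on the log2 scale and SF3A3 by 0.28. The call of SF3A3 was lost without DMSO replicate 1 (limma adjusted p = 0.0702), DMSO replicate 2 (0.115), 16'-DEC replicate 1 (0.117) or 16'-DEC replicate 2 (0.116), and its groups overlapped. SF3B3, the propeller-shaped scaffold subunit, measured 74.5, 84.9 and 89.3 TPM with DMSO and 104, 96.3 and 89.4 TPM with 16'-DEC. Its treated libraries were barely above its controls (log2 change 0.22, limma adjusted p = 0.0592), and it was called without DMSO replicate 3 (0.0417), without 16'-DEC replicate 3 (0.0316), after the GC and length adjustment (log2 change 0.57) and with median-of-ratios scaling (0.57) or quantile normalization (0.45). The ratio of SF3B6 to SF3B5 in TPM was 6.52, 6.03 and 4.77 with DMSO and 0.861, 0.973 and 0.921 with 16'-DEC. The ratio of SF3B1 to SF3B2 was 3.46, 3.03 and 2.71 with DMSO and 0.577, 0.713 and 0.735 with 16'-DEC. These pairings were picked after the values were seen and carry no test. A ratio within a library is free of scaling, although not of a trend with GC content, which was 41.0% for SF3B1 and 42.5% for SF3B6 against 55.7% for SF3B2 and 56.6% for SF3B5.

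**Figure D2:**
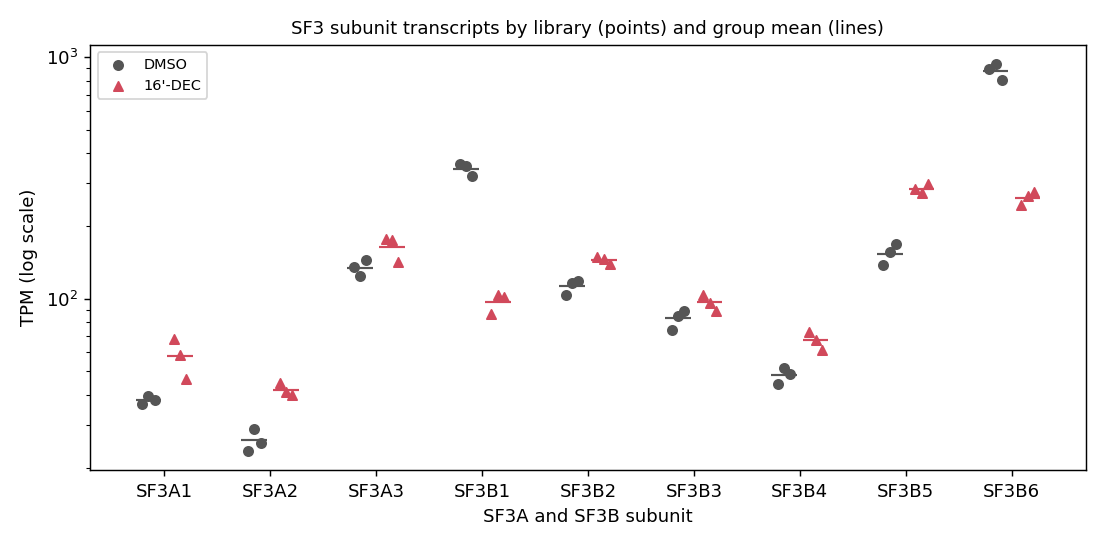
TPM (log axis) of the 9 listed SF3A and SF3B subunit genes in each of the 6 libraries. DMSO is shown as circles and 16'-DEC as triangles, with lines at the group means. The mean of SF3B1 drops from 345 to 97.3 TPM and that of SF3B6 from 879 to 262 TPM; SF3B5 goes up from 154 to 286 TPM.

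Of the PRPF genes, PRPF6, PRPF4, PRPF19 and PRPF31 rose as deposited and PRPF3 fell. PRPF6, which bridges the U5 and U4/U6 particles of the tri-snRNP, went from 62.1, 73.5 and 69.8 TPM to 101, 99.0 and 93.5 TPM. Its groups did not overlap (log2 change 0.51, limma adjusted p = 0.000498; 0.35 after the adjustment). PRPF3, a U4/U6 protein, went from 31.8, 31.7 and 32.8 TPM to 27.4, 28.1 and 25.03 TPM. All treated values were lower (log2 change -0.25, limma adjusted p = 0.0174), yet the change was smaller than the median fall of all genes, was 0.09 with median-of-ratios scaling, 0.26 with factors from every gene above 0 and 0.10 with quantile normalization, and was not called without DMSO replicate 3 (0.0596).

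U2AF2 and PRPF8 did not pass. U2AF2 measured 67.0, 74.2 and 77.0 TPM with DMSO and 75.2, 68.3 and 66.2 TPM with 16'-DEC, with overlapping groups (log2 change -0.06, limma adjusted p = 0.573; 0.29 with median-of-ratios scaling and -0.39 after the GC and length adjustment). PRPF8, the U5 protein at the catalytic centre, measured 84.3, 96.1 and 88.5 TPM with DMSO and 116, 108 and 92.1 TPM with 16'-DEC. Its groups overlapped through 16'-DEC replicate 3 (log2 change 0.22, limma adjusted p = 0.0678), and without that library the log2 change was 0.31 (limma adjusted p = 0.00966). PRPF8 was also called higher with median-of-ratios scaling (0.57), quantile normalization (0.45) and the GC and length adjustment (0.35). The calls of PRPF4 (0.33), PRPF19 (0.27) and PRPF31 (0.22) were weak. PRPF4 lost its call without 16'-DEC replicate 2 (limma adjusted p = 0.0553). PRPF19 lost it without DMSO replicate 1 (0.0546), 16'-DEC replicate 1 (0.0643) or 16'-DEC replicate 2 (0.0603). PRPF31 lost it without DMSO replicate 1 (0.115), DMSO replicate 2 (0.0857), 16'-DEC replicate 1 (0.0937) or 16'-DEC replicate 2 (0.114). Opposite-strand genes had 232% of the mean TPM of PRPF4 (CDC26) and 27.3% of PRPF31 (TFPT).

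Of the 16 SF3, U2AF2 and PRPF genes, 10 were higher (62.5%) and 3 lower (18.75%) as deposited. The counts were the same after the GC and length adjustment. All genes stood at 22.7% higher and 48.9% lower as deposited and at 34.5% and 31.7% after it. The count was 13 and 2 with median-of-ratios scaling (all genes 37.1% and 37.7%) and 14 and 2 with factors from every gene above 0 (43.5% and 32.4%). It was 12 and 2 with quantile normalization (42.0% and 33.3%) and 12 and 3 without 16'-DEC replicate 3 (24% and 46.8%). Without 16'-DEC replicate 2, 6 genes were called higher, beside 20.2% of all genes. The sum of these transcripts nevertheless fell, from 2200 ± 76.9 TPM (SD, n = 3) with DMSO to 1657 ± 45.5 TPM with 16'-DEC, since SF3B6 and SF3B1 were the most abundant of them in the controls (exact permutation p = 0.1).

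For 16 pairs of homologues the log2(TPM + 1) of one gene minus the other was compared between groups, a difference that library scaling leaves nearly untouched. In 13 of the 16 pairs the 3 treated differences lay wholly to one side of the 3 controls. How often pairs of other genes separate in this way was not computed, and 48.9% of all genes tested were called lower and 22.7% higher. Each of the 13 pairs gave an exact 2-sided permutation p = 0.1, the smallest possible here, and 0.12 after Benjamini-Hochberg adjustment over the 16. No pair could thus pass 0.05. HNRNPD minus HNRNPDL was -0.77, -0.74 and -0.51 with DMSO and 0.77, 0.61 and 0.53 with 16'-DEC. HNRNPDL was thus the more abundant of the pair in every control and HNRNPD in every treated library, a shift of 1.31 (1.59 after the GC and length adjustment). SRSF1 minus SRSF9 was 0.19, -0.10 and 0.15 with DMSO and -1.16, -0.94 and -1.35 with 16'-DEC. This shift of -1.23 was -1.11 after the adjustment.

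HNRNPL minus HNRNPLL was 0.86, 1.09 and 1.18 with DMSO and 2.29, 2.16 and 2.15 with 16'-DEC. HNRNPU minus HNRNPUL1 was 2.28, 2.21 and 2.24 with DMSO and 1.13, 1.33 and 1.40 with 16'-DEC. Their shifts of 1.16 and -0.96 reversed after the GC and length adjustment, to -0.38 and 0.24. The 3 pairs whose differences overlapped between groups were HNRNPD with HNRNPAB, HNRNPH1 with HNRNPH2 and HNRNPUL1 with HNRNPUL2, with shifts of -0.05, -0.08 and 0.30. After the GC and length adjustment HNRNPD against HNRNPAB (1.04) and HNRNPH1 against HNRNPH2 (-0.81) no longer overlapped between groups, and HNRNPU against HNRNPUL1 did. The other 9 pairs shifted by between 0.13 and 0.85 in size, among them SRSF4 against SRSF6 (0.85, reversed to -0.47 after the adjustment), HNRNPF against HNRNPH1 (0.76), TRA2A against TRA2B (-0.60) and HNRNPA1 against HNRNPA2B1 (0.56).

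**Figure D3:**
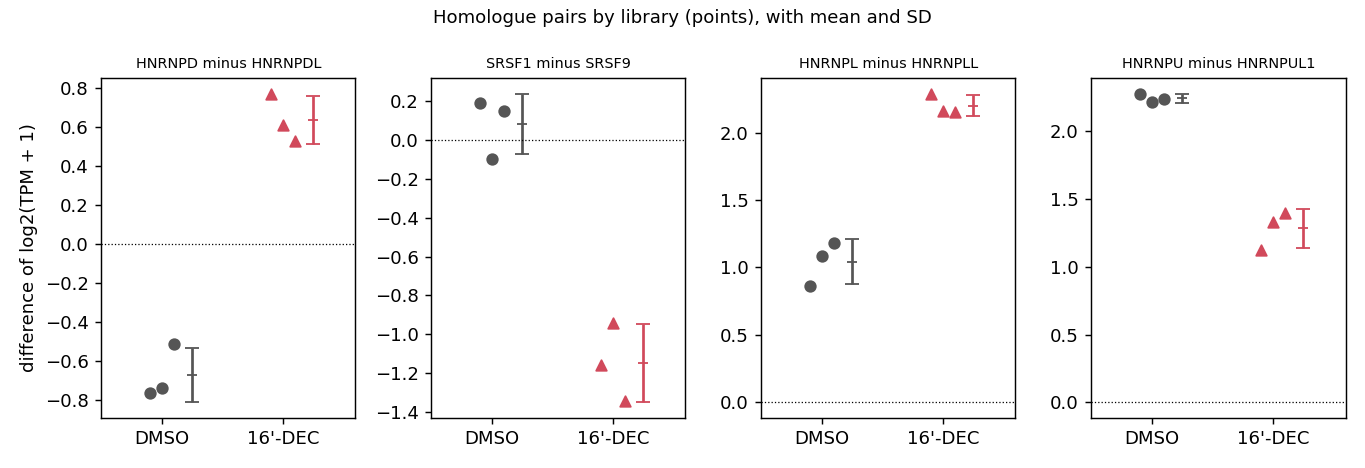
Difference of log2(TPM + 1) within the 4 homologue pairs with the largest shifts, each point a library, with mean and SD (n = 3) beside each group. In all 4 panels the DMSO and 16'-DEC points do not overlap, and the shift of the HNRNPL and HNRNPU pairs reversed after the GC and length adjustment.

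The size and direction of the change went with the GC content of the transcript, as it did across the table. Over the 49 genes Spearman's rho between GC content and the change was 0.75, and over 11401 protein-coding genes tested it was 0.71. These are correlations across genes of the same 6 libraries, a description and not a test. The other transcript features tracked it less, with rho of -0.14 for transcript length, 0.30 for exon number and 0.01 for the genomic span over the 49, against -0.33, -0.15 and -0.37 over the protein-coding genes. Among the 21 members under 45% GC, 19 were called lower by limma's adjusted p and none higher, with a median change of -1.03. None of these changes was positive. Among the 28 from 45% up, 11 were called higher and 12 lower, with a median of 0.06. This limit of 45% was set after the values were seen. The shares of all tested genes on either side of it that were called higher or lower were not computed. Median GC content was 43.8% for SR genes, 44.5% for hnRNP genes and 53.9% for the SF3, U2AF2 and PRPF genes. It was computed on 1 annotated transcript per gene, and other transcripts were not tried.

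Some members departed from that pattern. HNRNPH1 fell by 1.52 at a GC content of 51.6%, and SRSF1 fell by 0.90 at 49.4%, while HNRNPK and HNRNPC, at 42.3% and 44.5%, changed by -0.20 and -0.10. After the adjustment 18 of the 31 members that had fallen were still called lower, 5 were not called and 8 were called higher (SRSF3, SRSF8, TRA2B, HNRNPA0, HNRNPA1, HNRNPD, HNRNPLL and HNRNPU). Of the 11 that had risen 9 were still called higher, and PRPF19 and PRPF31 were not called. Among the 7 not called before, HNRNPC, HNRNPK, SF3B3 and PRPF8 were called higher, U2AF2 was called lower, and HNRNPL and HNRNPUL1 were not called. The source of the trend with GC content was not tested.

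**Figure D4:**
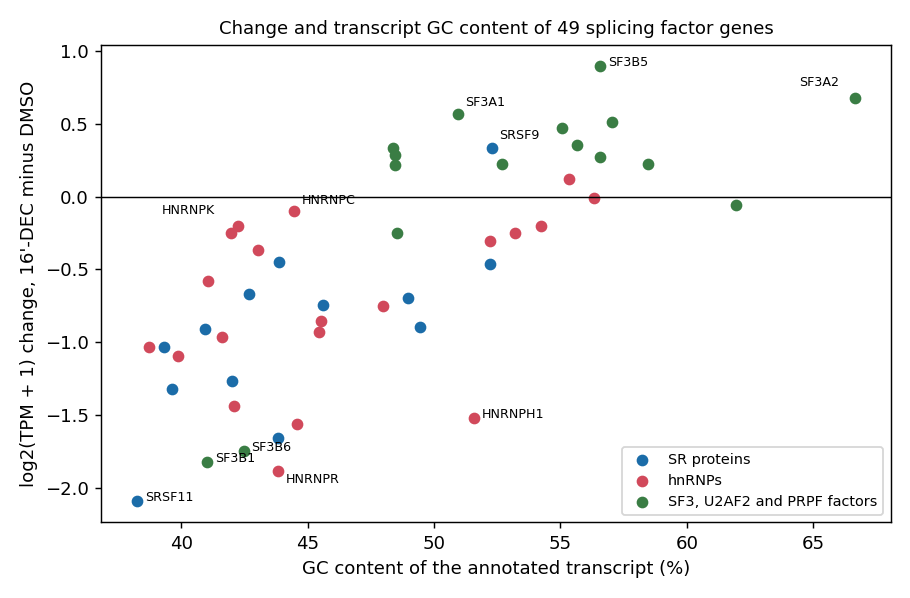
GC content of the annotated transcript (%) against the change on the log2(TPM + 1) scale, 16'-DEC minus DMSO, for the 49 genes as deposited, coloured by family. Points rise from SRSF11 at 38.3% GC to SF3B5 at 56.6% and SF3A2 at 66.6%, and HNRNPH1 lies well below the others near its GC content.

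Other genes of the splicing machinery are given from 2 further lists. Of 56 other snRNP and core spliceosome genes, 13 rose and 30 fell, the median change was -0.38, and 13 missed the threshold. These are 23.2% higher and 53.6% lower, near the 22.7% and 48.9% of all genes tested. PRPF39, a U1 snRNP-associated protein, went from 30.2, 31.2 and 29.1 TPM to 4.56, 5.01 and 4.82 TPM (log2 change -2.43, limma adjusted p = 1.17e-07). BCAS2, a subunit of the PRPF19 complex, changed by -1.73 (limma adjusted p = 1.75e-07), and the kinase gene PRPF4B, listed under its symbol PRP4K, by -2.43 (1.95e-07). The U6-associated LSM2 changed by 0.80 (limma adjusted p = 5.85e-05), the Sm protein gene SNRPD2 by 0.74 (8.05e-05) and XAB2 by 0.72 (0.000112). All 6 kept their direction after the GC and length adjustment, under which the list held 20 higher (35.7%) and 19 lower (33.9%) genes, near the 34.5% and 31.7% of all genes in that fit.

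The list of 48 other SR-related proteins and alternative splicing regulators held 46 tested genes, of which 2 rose and 30 fell, while 14 missed the threshold, and the median change was -0.72. These are 4.35% higher and 65.2% lower, beside 22.7% and 48.9% of all genes tested. ESRP1 and NOVA1, epithelial and neuronal regulators, were under the limit of 1 TPM. The stress granule protein gene TIA1 went from 172, 152 and 159 TPM to 23.0, 22.5 and 19.1 TPM, a 7.49-fold lower mean (log2 change -2.85, limma adjusted p = 1.17e-07). PNN, an SR-related protein, changed by -2.56 and LUC7L3, a U1-associated protein, by -2.19, both with the same limma adjusted p of 1.17e-07. RALY, an hnRNP C relative, rose by 0.78 (limma adjusted p = 3.19e-05) and the exon regulator RBM10 by 0.28 (0.0269). RBM10 lost its call without DMSO replicate 1 (limma adjusted p = 0.0794), 16'-DEC replicate 1 (0.0734) or 16'-DEC replicate 2 (0.0634). After the adjustment this list held 6 higher (13.0%) and 33 lower (71.7%) genes, beside 34.5% and 31.7% of all genes in that fit. It was the only one of the 5 lists in which more genes were called lower than before the adjustment.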

How the data were processed

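Poly(A) mRNA of 3 DMSO and 3 16'-DEC libraries was sequenced, per the labels' protocols, after random priming and PCR, with no strand marking described. For 78304 genes the authors deposited TPM in a single table. GRCh38 is the build in the submitters' processing notes, which also list HTSeq 0.6.1, HISAT2 2.0.1, DESeq2 and cutadapt 1.9.1 with no role for any. The annotation is not given in the sources used here. Depth and its precision are unknown, since TPM keep no depth. Among the genes tested, at most 0.329% of values were identical between any 2 libraries.

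The 14275 genes that averaged 1 TPM or more were fitted on log2(TPM + 1), a scale that understates changes of low genes, with limma 3.58.1 in R 4.3.3 (eBayes with a mean trend, 2-sided, Benjamini-Hochberg, threshold 0.05). Fold changes are ratios of mean TPM. All adjusted p-values are from this fit or the named alternative. Members, lists, pairs and motifs were chosen with earlier results of these data known. The text names, for each family, as many as 5 members per direction by smallest adjusted p, the members that did not pass, and the most abundant one, and up to 3 each way of the other lists; the other members are summarised.

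GC content, length and coordinates came from GENCODE 29 (1 transcript per gene: APPRIS principal, then basic, then longest), matched for 93.11% of tested genes and all 49 members. The adjustment removed natural splines (5 degrees of freedom each) with an intercept from each library's deviations. Promoters are RefSeq, GRCh38.p14. The gene set behind median-of-ratios factors was settled after both versions had been seen: the genes tested were used, and the version with every gene above 0 is an alternative. The fit was tested on simulated data; the first simulation missed its recovery target at a log2 change of 1, and the simulated variances were then changed, so no rate is quoted. Figures used matplotlib 3.10.9 in Python 3.11.15.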

Additional observations from a re-analysis of the deposited data

How the results depend on the processing

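Depth is unknown from TPM, and 3 libraries per group limit what can be called. Pseudocounts of 0.1 and 5, a limit of 5 TPM or none, no mean trend, summing the rows of a repeated symbol and array weights kept the counts of higher and lower genes within 1.5 times for the 49 members, their 3 families, the 2 other lists together and all genes tested. Under the other settings some counts moved, and the cause was not tested. A threshold of 0.01 leaves fewer calls by its construction, while leaving out a library gave fewer or more.

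Over the 49 members, 17 were higher with median-of-ratios scaling, 23 higher and 20 lower with factors from every gene above 0 (an alternative chosen after seeing the data), 21 and 19 after the GC and length adjustment, 20 and 19 with that adjustment and the replicate block, and 7 higher at a threshold of 0.01. SR proteins held 4 higher and 7 lower genes after the adjustment, with or without the block. The hnRNPs held 3 higher genes with median-of-ratios scaling, 8 higher and 10 lower with factors from every gene above 0, 1 higher with quantile normalization, 7 and 9 after the adjustment and 6 and 9 with the block as well. At a threshold of 0.01, 6 SF3, U2AF2 and PRPF genes were higher. Of all genes tested, 17.7% were called higher and 42.8% lower at that threshold. The 2 other lists together held 37, 44 and 30 higher genes under these 3 scalings in that order, 26 after the adjustment with or without the block, and 8 at a threshold of 0.01. Taken apart, the other snRNP and core spliceosome list (13 higher) held 23, 27 and 20 higher genes under those scalings and 7 without 16'-DEC replicate 1 or 8 without 16'-DEC replicate 2. The SR-related list (2 higher) held 14, 17 and 10 under them, 1 with no filter on low values and 1 to 3 with a library left out. Over all genes tested, 3236 higher and 6974 lower became 5290 and 5376 with median-of-ratios scaling, 6204 and 4621 with factors from every gene above 0, 5990 and 4748 with quantile normalization, 4589 and 4213 after the adjustment, and 4339 and 3982 with the block as well.

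Leaving out each library in turn gave 7 to 13 higher and 28 to 31 lower members, 1 higher and 12 lower SR genes, 0 higher and 14 to 16 lower hnRNP genes, 6 to 12 higher and 2 to 3 lower SF3, U2AF2 and PRPF genes, 8 to 15 higher and 56 to 60 lower genes of the other lists, and 2773 to 3426 higher and 6670 to 6754 lower genes of all tested. The lowest counts of higher members (7) and of SF3, U2AF2 and PRPF genes (6) came without 16'-DEC replicate 2.

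The deviations of same-numbered libraries from their group means had a Pearson r of 0.09, -0.18 and -0.07. With 3 libraries per group these values cannot decide whether the numbers pair the libraries, and the labels do not say. With the replicate number as a block, 9 members were higher and 28 lower, beside 21.1% and 47.8% of all genes tested.

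Single genes reversed as follows. After the GC and length adjustment the log2 changes were 0.28 for SRSF3, 0.10 for SRSF7, 0.30 for SRSF8, 0.17 for TRA2B, 0.60 for HNRNPA0, 0.50 for HNRNPA1, 0.42 for HNRNPC, 0.69 for HNRNPD, 0.012 for HNRNPH3, 0.69 for HNRNPK, -0.041 for HNRNPL, 0.33 for HNRNPLL, 0.13 for HNRNPU and -0.069 for PRPF31, and adding the replicate block left these values as they were. The shifts of 6 pairs reversed with it, to 0.18 for SRSF3 and SRSF7, -0.47 for SRSF4 and SRSF6, -0.50 for SRSF5 and SRSF6, 1.04 for HNRNPD and HNRNPAB, -0.38 for HNRNPL and HNRNPLL and 0.24 for HNRNPU and HNRNPUL1. With median-of-ratios scaling, and in brackets with factors from every gene above 0, HNRNPAB was at 0.15 (0.32), HNRNPC at 0.25 (0.43), HNRNPD at 0.10 (0.28), HNRNPK at 0.15 (0.33), HNRNPM at 0.10 (0.28), HNRNPUL1 at 0.34 (0.51), HNRNPUL2 at 0.034 (0.20), U2AF2 at 0.29 (0.46) and PRPF3 at 0.089 (0.26), and under the second also SRSF4 at 0.055, SRSF8 at 0.057 and HNRNPA1 at 0.16. Quantile normalization put HNRNPUL1 at 0.22, HNRNPUL2 at 0.085, U2AF2 at 0.17 and PRPF3 at 0.10. HNRNPUL1 was at 0.10 with array weights and between -0.11 and 0.15 with each library left out, the highest without 16'-DEC replicate 3.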
